A study of Mus musculus with 12 samples.

Results

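Neuropeptide receptors are the genes described here: 37 receptors for peptide transmitters and hormones, chosen by gene symbol from a fixed membership list, of 32531 gene rows in the count tables. All 37 had a row, and all 37 passed the filter on low counts, as did 18128 genes in all. A mean of at least 1 CPM (counts scaled to library size with the trimmed mean of M values) was reached in at least 1 of the 4 groups by 31 of them. These 31 are described one by one, and the 6 receptors below 1 CPM in every group are counted.

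The RNA came from adult mice of the Slc17a6-EGFP/Rpl10a (JX883) transgenic line, in which a ribosomal protein fused to EGFP is driven by Slc17a6, the gene of the vesicular glutamate transporter VGLUT2. Translating ribosome affinity purification (TRAP) captures tagged polysomes with antibodies to EGFP. The 4 groups of 3 libraries were hypothalamus IP (the captured, ribosome-bound RNA), hypothalamus input (RNA of the whole homogenate), midbrain IP and midbrain input. All 4 groups carry the transgene, and the labels name no IP from mice that lack the tag, so capture without the tag was not measured.

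Neuropeptide receptors are, with few exceptions, G protein-coupled receptors of the cell membrane that answer peptides released from dense-core vesicles, often at a distance from the release site. Receptors that couple to Gi, such as the neuropeptide Y, somatostatin and opioid receptors and the galanin receptor Galr1, dampen the cell. Receptors coupled to Gq or Gs, such as those for orexin, substance P, thyrotropin-releasing hormone and the peptide PACAP, excite the cell or raise its cyclic AMP. In the hypothalamus neuropeptide receptors serve feeding, water balance, stress and reproduction, and in the midbrain pain control, arousal and defensive behaviour. In bulk libraries such as these, fewer cells with a receptor and less of its RNA per cell cannot be told apart.

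The gene counts of a library summed to 41909019 at the lowest and 55148109 at the highest, where a floor of 3 counts corresponded to 0.0537 to 0.0709 CPM. Slc17a6 itself rose in the IP of both regions, by 2.60 on the log2 scale in the hypothalamus (SE 0.49, adjusted p = 0.00184) and by 1.82 in the midbrain (SE 0.48, adjusted p = 0.0116). The 4 libraries numbered 1 stood apart for these receptors: the 37 summed to 584 CPM in hypothalamus IP 1, against 255 and 290 CPM in the other hypothalamus IPs, and to 766 CPM in hypothalamus input 1, against 343 and 364 CPM in the other hypothalamus inputs. In the midbrain the sum was 591 CPM in IP 1, against 320 and 366 CPM in the other IPs, and 509 CPM in input 1, against 314 and 331 CPM in the other inputs. The ribosomal RNA precursor Rn45s took 12.3% and 12.5% of the counts in the hypothalamus and midbrain IPs numbered 1, and 5.21% to 6.85% in the other IPs. The part of these libraries in the spread was not tested, but each result below is given without them where that changes its call. IP and input of the same region and number carry the same lane label, so their ratio is also given within the lane. IP and input were also compared in a fit with each such pair as a block (the lane block), and the regions in a fit with a block for each replicate number (the replicate block). The regions of a number share no lane, and their pairing was chosen from these same counts. A blocked value is given where it changes a call. Of 9 GABAergic neuron markers 8 fell in the IP of each region, to a summed 198 to 360 CPM in hypothalamus IP against 1736 to 2325 CPM in hypothalamus input, and 137 to 259 CPM in midbrain IP against 1241 to 1800 CPM in midbrain input; their part in the receptor results was not tested. Ependymal and choroid plexus markers summed to 906 CPM in midbrain input 3 and to at most 35.2 CPM in any other library. One index sequence marks every IP and a different one every input, hence index and fraction cannot be told apart.

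**Figure D1:**
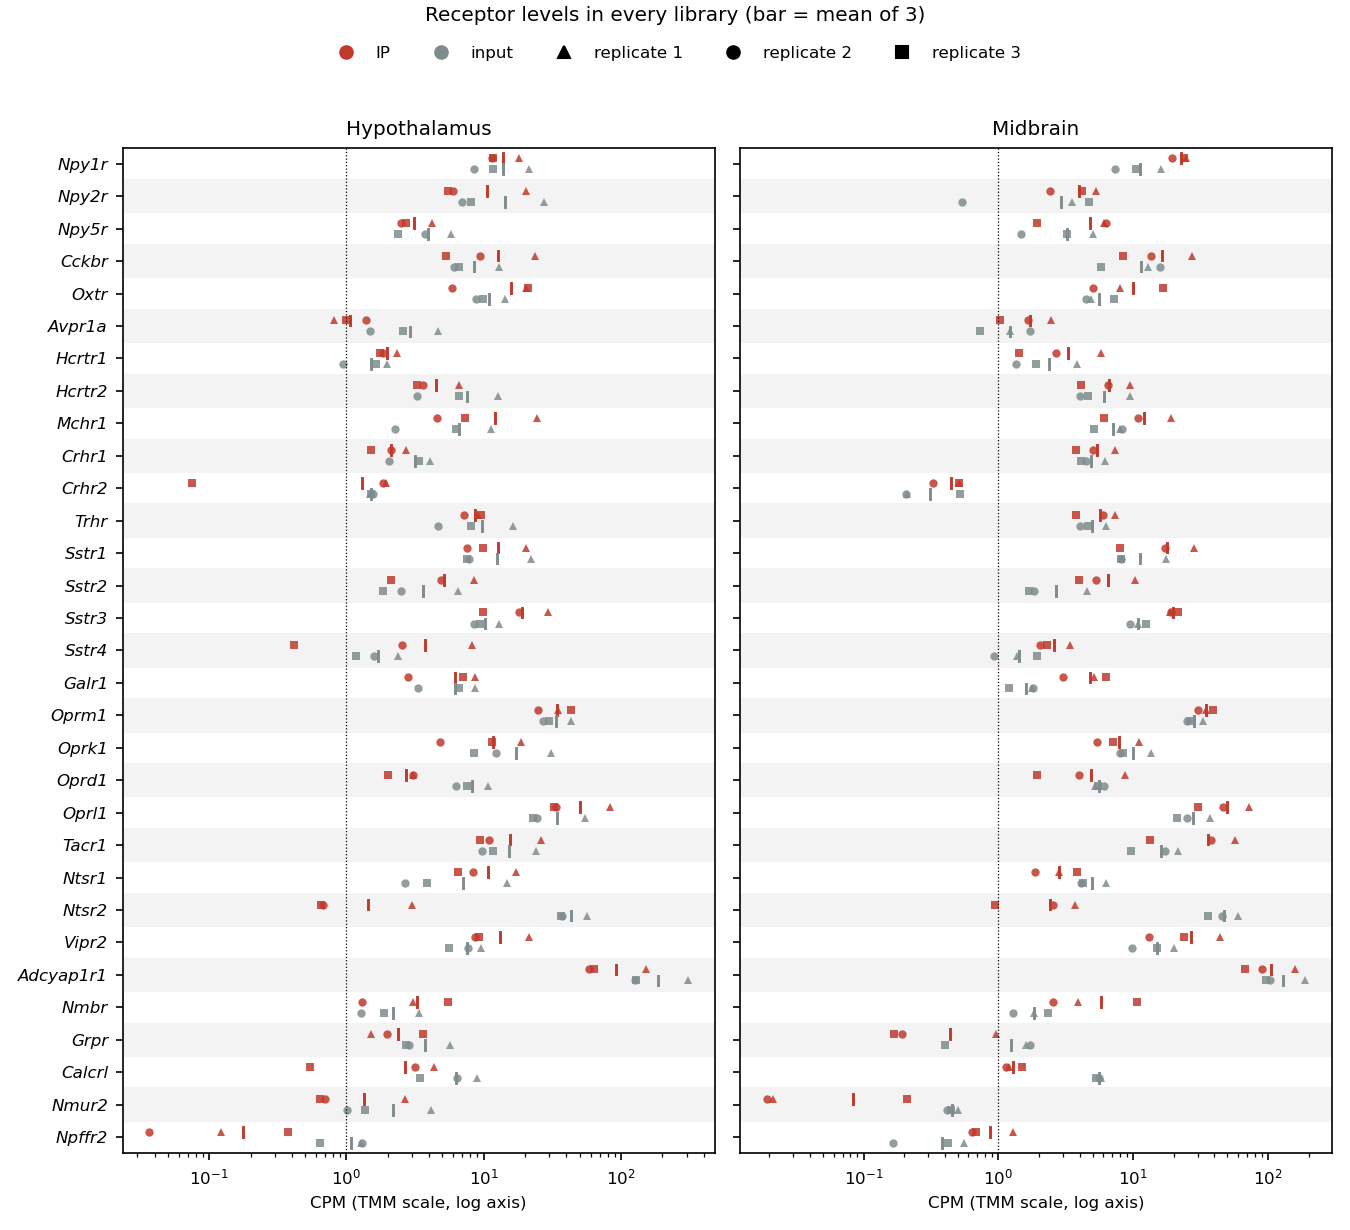
Level of each of the 31 receptors in every library, in CPM on a log axis, for the hypothalamus (left) and the midbrain (right). IP libraries are red and input libraries grey, the marker shape gives the replicate number and the bar the mean of 3. Ntsr2 has every IP library far below every input library in both regions, and triangles, the libraries numbered 1, often lie furthest to the right.

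The receptors spanned a wide range of levels. Divided by merged exon length, Adcyap1r1 and Oprl1 headed both IP groups. Adcyap1r1 encodes PAC1, the receptor selective for PACAP, and averaged 13.9 ± 8.07 CPM per kb in hypothalamus IP and 15.9 ± 7.11 CPM per kb in midbrain IP (SD, n = 3 each). Oprl1 encodes the nociceptin receptor and averaged 13.3 ± 7.77 CPM per kb in hypothalamus IP and 13.3 ± 5.70 CPM per kb in midbrain IP. The library ranges of the pair overlapped in both regions, so their order is not resolved. Sstr1, a somatostatin receptor, came next by mean, with 6.18 ± 3.36 and 8.71 ± 4.97 CPM per kb in hypothalamus and midbrain IP. Its library range overlapped those of receptors below it, such as Mchr1 in hypothalamus IP and Npy1r in midbrain IP. The rank of Sstr1 is therefore not resolved either. In the inputs the order was headed by Adcyap1r1, with 28.3 ± 15.6 CPM per kb in the hypothalamus and 19.7 ± 7.70 in the midbrain, and then by Ntsr2, with 13.9 ± 3.59 and 15.1 ± 3.79 CPM per kb. Ntsr2 was only at rank 27 of 37 in hypothalamus IP and rank 24 in midbrain IP. At least 1 CPM was reached by 30 receptors in hypothalamus IP, 31 in hypothalamus input, 27 in midbrain IP and 28 in midbrain input, and 27 reached it in all 4 groups.

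**Figure D2:**
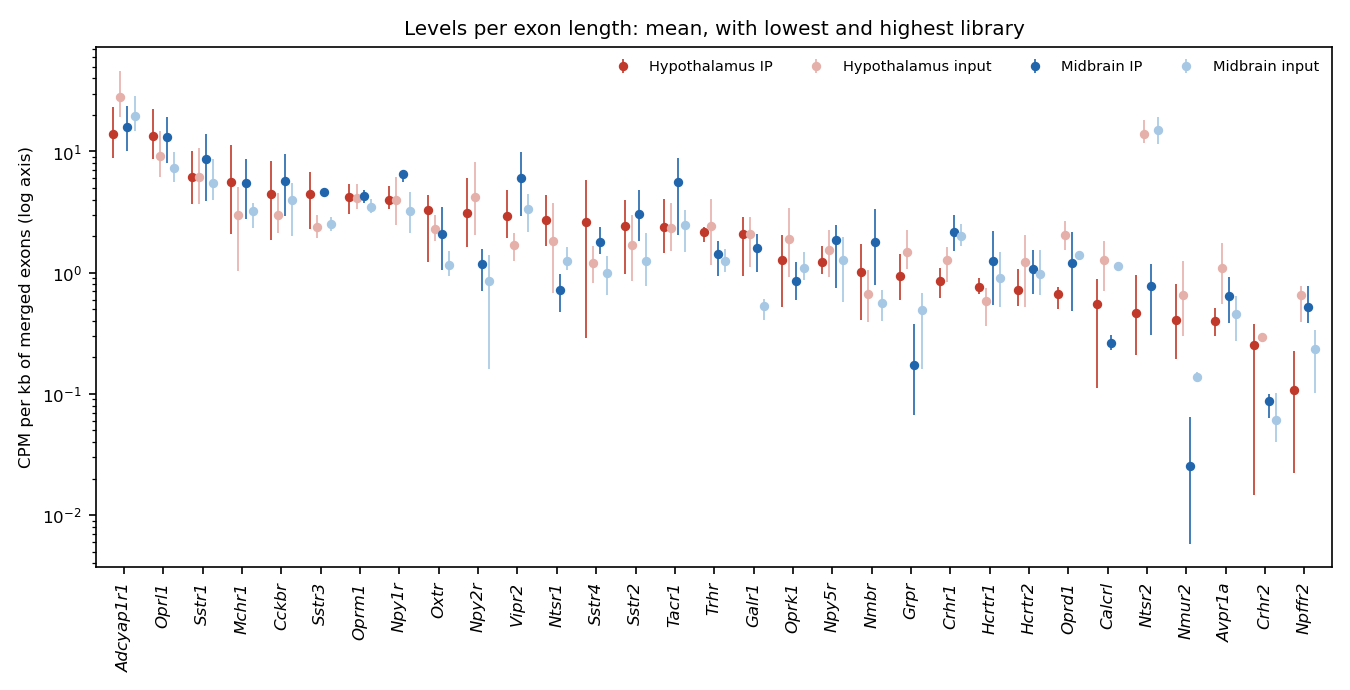
Mean level per kb of merged exons for the 31 receptors (CPM per kb, log axis), in order of the hypothalamus IP mean, with lines from the lowest to the highest of 3 libraries. Adcyap1r1 and Oprl1 lead in both IP groups, and the input points of Ntsr2, near those of Adcyap1r1, lie far above its IP points.

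In the hypothalamus, no receptor was called higher in IP than in input and 4 were called lower: Ntsr2, Vipr1, Npffr2 and Oprd1. That is 0% of the 37 receptors higher, where 14.2% of all genes tested were called higher, and 10.8% lower, where 19.6% of all genes were. The libraries of the groups did not overlap for 0 receptors in the higher direction, where this held for 19.7% of all genes, and for 7 (18.9%) in the lower direction, where it held for 27.3%. The median log2 fold change of the 37 was -0.23, beside -0.08 over all genes. At an unadjusted p under 0.05 there were 8 receptors, the 4 called and Avpr1a, Sstr3, Adcyap1r1 and Npffr1. The share of all genes at that p was not computed, but 33.8% of all genes passed the stricter adjusted threshold in either direction. With the lane block, 4 receptors (10.8%) were called higher, namely Mchr1, Sstr3, Oprl1 and Vipr2, where 18.4% of all genes were. In that fit 5 (13.5%) were called lower, namely Ntsr2, Vipr1, Oprd1, Adcyap1r1 and Calcrl, where 22.1% of all genes were, and Npffr2 was no longer called.

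In the midbrain, Galr1 and Npy1r rose in IP relative to input, and Ntsr2 and Calcrl fell. Both counts come to 5.41% of the 37 receptors, where 14.0% of all genes were called higher and 19.9% lower. Libraries did not overlap for 8 receptors (21.6%) in the higher direction, close to the 21.1% of all genes, and for 4 (10.8%) in the lower direction, where 27.8% of all genes did so. Fold changes were above 1 for 27 of the 37, with a median log2 value of 0.49 beside -0.05 over all genes. The median ratio of IP to input within a lane over the 31 receptors was 1.61, 1.47 and 0.978 in numbers 1, 2 and 3, so the third pair did not lie above 1. At an unadjusted p under 0.05 there were 7 receptors, the 4 called and Sstr3, Nmbr and Nmur2. The share of all genes at that p was not computed, but 33.9% of all genes passed the stricter adjusted threshold in either direction. With the lane block, 8 receptors (21.6%) were called higher, where 19.3% of all genes were: Galr1 and Npy1r, and in addition Sstr2, Sstr3, Oprl1, Tacr1, Vipr2 and Nmbr. Called lower in that fit were 4 (10.8%), where 21.5% of all genes were: Ntsr2, Calcrl, Nmur2 and Adcyap1r1.

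**Figure D3:**
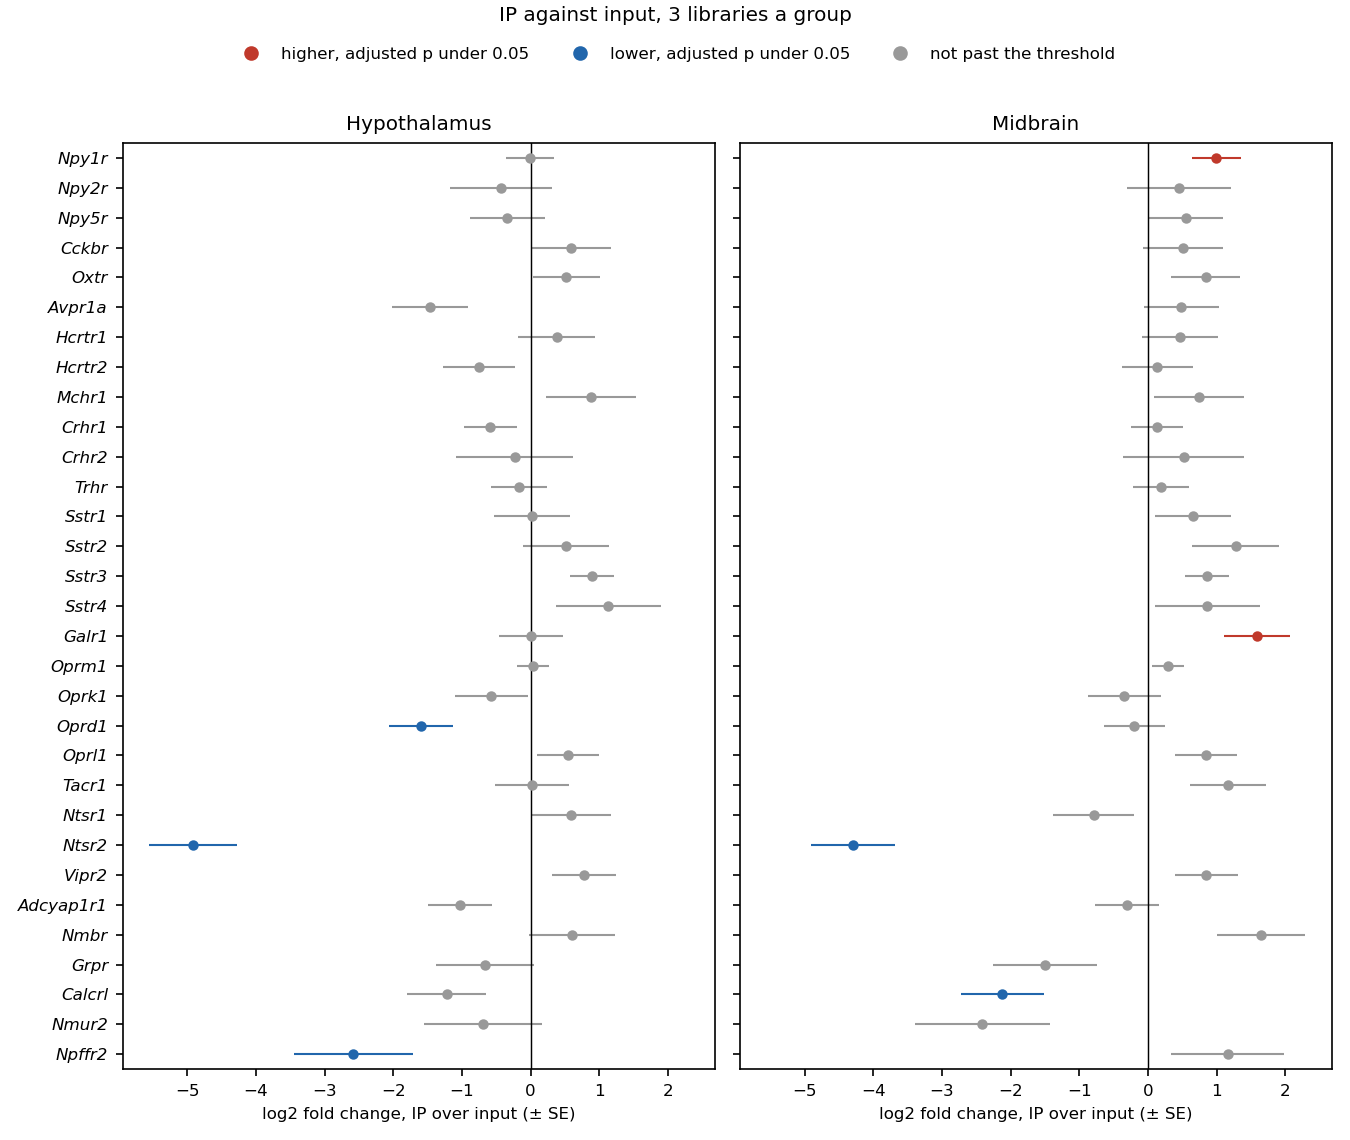
Log2 fold change of IP over input for the 31 receptors, with its standard error, in the hypothalamus (left) and the midbrain (right). Red points passed the threshold as higher and blue as lower; Ntsr2 is the lowest point of both panels, at -4.91 in the hypothalamus and -4.29 in the midbrain.

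Within a lane, the IP exceeded its input in all 3 numbers for 7 of the 31 receptors in the hypothalamus, where this held for 29.4% of all genes, and fell short of it in all 3 for 8, where this held for 37.0% of all genes. In the midbrain 13 of the 31 were above their input in all 3 numbers, where 31.1% of all genes were, and 7 were below, where 35.5% of all genes were. Mchr1, Sstr2, Sstr3, Oprl1 and Vipr2 lay above 1 in every pair of both regions, and Ntsr2, Adcyap1r1, Calcrl and Nmur2 below 1 in every pair of both.

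**Figure D4:**
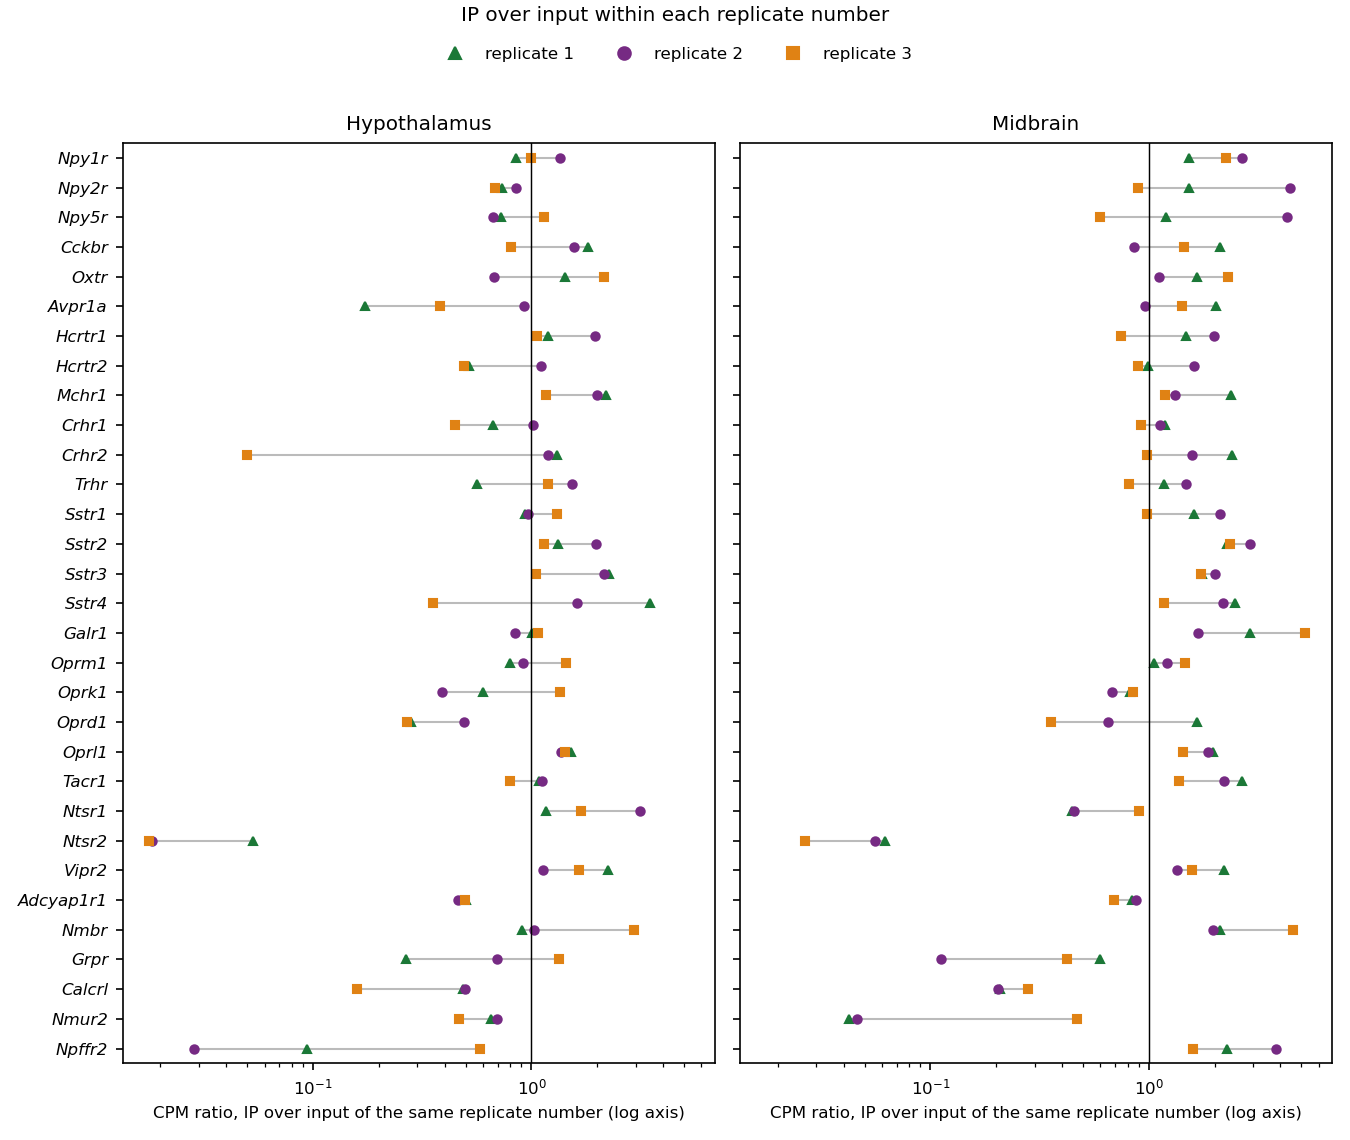
Ratio of IP to input within each replicate number (CPM over CPM, log axis), 1 point per number, joined by a line for each of the 31 receptors. The 3 points of Adcyap1r1 and of Oprl1 in the hypothalamus nearly coincide, at 0.462 to 0.50 and 1.37 to 1.52, although library 1 of both fractions lies over 2 times above the others for both genes.

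Of the neurotensin receptors, Ntsr1, the high-affinity one, lies on chromosome 2 (180499976 to 180544980, mm10) and Ntsr2, the low-affinity receptor, on chromosome 12 (16653382 to 16660227); Ntsr2 is known from astrocytes as well as neurons. The start regions of both genes, 250 bases before to 50 bases after the RefSeq start on GRCm38.p6, are shown because Ntsr2 had the lowest ratio of IP to input in the plot of IP against input. Capitals mark CG dinucleotides, and both sequences are on the plus strand, at chr2:180499726-180500025 for Ntsr1 and chr12:16653220-16653519 for Ntsr2.
Ntsr1: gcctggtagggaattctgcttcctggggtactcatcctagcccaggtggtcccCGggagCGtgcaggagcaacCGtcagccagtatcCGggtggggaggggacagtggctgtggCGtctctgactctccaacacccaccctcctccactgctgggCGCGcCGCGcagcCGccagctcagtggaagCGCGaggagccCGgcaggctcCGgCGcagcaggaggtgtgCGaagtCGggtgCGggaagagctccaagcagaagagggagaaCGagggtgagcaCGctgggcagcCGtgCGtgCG
Ntsr2: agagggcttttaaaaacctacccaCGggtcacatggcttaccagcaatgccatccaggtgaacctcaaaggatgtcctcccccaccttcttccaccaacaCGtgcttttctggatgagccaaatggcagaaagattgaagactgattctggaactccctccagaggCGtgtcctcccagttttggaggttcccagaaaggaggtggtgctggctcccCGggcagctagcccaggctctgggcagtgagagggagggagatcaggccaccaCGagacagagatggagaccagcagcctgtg
The Ntsr1 window holds 23 CG dinucleotides, and 21.5% of the 32851 mouse promoter windows in the RefSeq table hold at least as many. The Ntsr2 window holds 5, and 62.0% of windows hold at least as many, with a median of 7. A promoter entry was found for 31 of the 37 receptors. The counts of CG are a description of the letters and were not related to the levels.

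Ntsr2 had 3.0, 0.679 and 0.656 CPM in hypothalamus IP, against 56.3, 37.0 and 36.8 CPM in hypothalamus input. In the midbrain it had 3.70, 2.55 and 0.952 CPM in IP, against 59.5, 45.6 and 35.9 CPM in input. No IP library came near an input library in either region. Ntsr2 fell by 4.91 on the log2 scale in hypothalamus IP (SE 0.64, adjusted p = 0.000159), a level 30.1-fold lower, and by 4.29 in midbrain IP (SE 0.61, adjusted p = 0.000326), 19.6-fold lower. The fall did not differ detectably between the regions (difference of log2 fold changes -0.62, SE 0.78, adjusted p = 1.00). Beside it, all 8 astrocyte markers fell in the IP of both regions. Their summed level was 123 to 282 CPM in hypothalamus IP against 884 to 1978 CPM in hypothalamus input, and 215 to 308 CPM in midbrain IP against 1142 to 2119 CPM in midbrain input, and none was at 0 in any group. The fall was not particular to astrocyte markers. All 8 oligodendrocyte, all 4 oligodendrocyte precursor and all 8 microglia markers also fell in the IP of both regions. The part of astrocyte or other glial RNA in the Ntsr2 result was not tested. In share of the pair per kb, Ntsr2 held 14.5% in hypothalamus IP against 88.5% in hypothalamus input, and 51.5% in midbrain IP against 92.3% in midbrain input.

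Ntsr1 had 17.2, 8.32 and 6.52 CPM in hypothalamus IP, against 14.8, 2.65 and 3.89 CPM in hypothalamus input. It had 2.81, 1.86 and 3.85 CPM in midbrain IP, against 6.34, 4.10 and 4.28 CPM in midbrain input. Each midbrain IP library lay below each midbrain input library, and each hypothalamus IP library above each midbrain IP library. Ntsr1 was not called against input (log2 fold change 0.59, adjusted p = 0.469 in the hypothalamus and -0.79, adjusted p = 0.331 in the midbrain). Between the IPs the log2 fold change of hypothalamus over midbrain was 1.91 (SE 0.60, adjusted p = 0.103), and with the replicate number as a block 1.77 (SE 0.43, adjusted p = 0.0164). Its ligand gene Nts rose in midbrain IP, at 43.9, 17.8 and 18.3 CPM against 9.89, 4.17 and 3.36 CPM in midbrain input (log2 fold change 2.20, SE 0.59, adjusted p = 0.0129).

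The PACAP and VIP receptors were led by Adcyap1r1 (chromosome 6, 55451978 to 55501451). It had 153, 58.6 and 63.5 CPM in hypothalamus IP, against 306, 127 and 128 CPM in hypothalamus input. Library 1 held over 2 times the level of the others in both fractions, and the groups overlap only because IP 1 lies above inputs 2 and 3. Within a lane the IP level was 0.50, 0.462 and 0.496 of the input. The log2 fold change was -1.03 (SE 0.47, adjusted p = 0.113). With the lane block, Adcyap1r1 fell by 1.04 (SE 0.11, adjusted p = 3.71e-05), and without the 4 libraries numbered 1 it fell by 1.06 (SE 0.15, adjusted p = 0.000789). In the midbrain it had 158, 90.4 and 67.2 CPM in IP, against 188, 104 and 97.4 CPM in input, with ratios of 0.837, 0.874 and 0.690 and a log2 difference of -0.30 (SE 0.46, adjusted p = 0.655). It fell there by 0.33 with the lane block (SE 0.11, adjusted p = 0.0366). PAC1 is made by glial cells as well as neurons, and the astrocyte sums given for Ntsr2 moved the same way; their part was not tested. The ligand gene Adcyap1 went the other way and rose in the IP, by a log2 change of 1.89 (SE 0.54, adjusted p = 0.0178) in the hypothalamus and 1.48 (SE 0.54, adjusted p = 0.0496) in the midbrain.

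Vipr2, a receptor for VIP and PACAP, had 21.3, 8.65 and 9.27 CPM in hypothalamus IP, against 9.51, 7.69 and 5.62 CPM in hypothalamus input. It had 44.0, 13.1 and 23.8 CPM in midbrain IP, against 19.98, 9.74 and 15.02 CPM in midbrain input. Every IP exceeded the input of its lane, by 1.12 to 2.24 times, but the groups overlap. The log2 ratio of IP to input was 0.78 in the hypothalamus (SE 0.46, adjusted p = 0.216) and 0.85 in the midbrain (SE 0.46, adjusted p = 0.173). Vipr2 rose in the IP of both regions with the lane block, by 0.69 in the hypothalamus (SE 0.23, adjusted p = 0.0353) and by 0.74 in the midbrain (SE 0.23, adjusted p = 0.0233). Hypothalamus IP was below midbrain IP in all 3 numbers (log2 fold change -1.04, SE 0.46, adjusted p = 0.252), and with the replicate block Vipr2 fell by 1.02 (adjusted p = 0.0219). The inputs lay in the same order without overlap (log2 fold change -0.97, SE 0.46, adjusted p = 0.468). The difference of the 2 enrichments was -0.07 (SE 0.65), without a call.

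Vipr1, the other VIP receptor, stayed below 1 CPM in every group and is named because it was called, a choice made after its values were seen. It lies on chromosome 9 (121642716 to 121672954). Its counts were 0, 0 and 1 in hypothalamus IP, against 28, 20 and 33 in hypothalamus input, and 17, 19 and 27 in midbrain IP, against 14, 34 and 42 in midbrain input. Hypothalamus IP thus stood apart from all other groups. Vipr1 was called lower in hypothalamus IP than in hypothalamus input (adjusted p = 0.00171) and than in midbrain IP (adjusted p = 0.0139). With 1 count in the group, the ratio to input was 83.3 times lower with a 95% counting interval of 14.5 to 3332, and that to midbrain IP 67.8 times lower with an interval of 11.7 to 2719. Without the 4 libraries numbered 1, Vipr1 remained called against input (adjusted p = 0.0223), but not against midbrain IP, where no receptor was then called lower. The difference of its enrichments was not called (adjusted p = 0.263). Of the endothelial and mural markers 7 of 8 fell in hypothalamus IP, and Cldn5 and Slco1a4 were at 0. Their sum there was 1.29 to 3.10 CPM against 23.5 to 28.7 CPM in hypothalamus input. In midbrain IP 6 of the 8 fell too, while Vipr1 was not called against midbrain input (log2 fold change -0.60, SE 0.80, adjusted p = 0.606). The part of these markers in the Vipr1 result was not tested.

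Among the opioid receptors, which couple to Gi, Oprd1 was the member called in the fit without a block. Oprd1, the delta receptor (chromosome 4, 132110726 to 132144486), had 3.04, 3.05 and 2.02 CPM in hypothalamus IP, against 10.8, 6.23 and 7.49 CPM in hypothalamus input. The groups did not overlap, and Oprd1 fell by 1.60 (SE 0.46, adjusted p = 0.0186), a level 3.02-fold lower. The call was lost without hypothalamus IP 3 (adjusted p = 0.0641) or without hypothalamus input 1 (adjusted p = 0.0685). In the midbrain it had 8.71, 3.95 and 1.95 CPM in IP, against 5.24, 6.05 and 5.44 CPM in input, and the wide IP range enclosed all inputs (log2 fold change -0.20, SE 0.45, adjusted p = 0.772). The 2 regional effects were not shown to differ (difference -1.40, SE 0.64, adjusted p = 0.751).

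Oprl1 (chromosome 2, 181715016 to 181720985) had 83.6, 33.4 and 32.8 CPM in hypothalamus IP, against 55.1, 24.4 and 22.9 CPM in hypothalamus input. It had 72.5, 46.7 and 30.0 CPM in midbrain IP, against 36.8, 25.1 and 21.0 CPM in midbrain input. Each IP was above the input of its lane, by 1.37 to 1.52 times in the hypothalamus and 1.43 to 1.97 times in the midbrain, while the groups overlap because of library 1. The log2 ratio of IP to input was 0.55 in the hypothalamus (SE 0.45, adjusted p = 0.382) and 0.85 in the midbrain (SE 0.45, adjusted p = 0.172). With the lane block Oprl1 rose by a log2 change of 0.52 in hypothalamus IP (SE 0.15, adjusted p = 0.0138) and of 0.80 in midbrain IP (SE 0.15, adjusted p = 0.00122), and without the 4 libraries numbered 1 it rose in midbrain IP by 0.74 (SE 0.22, adjusted p = 0.0299). Pnoc, which encodes its ligand nociceptin, averaged 18.9 ± 11.2 CPM in hypothalamus IP and 4.01 ± 1.73 CPM in midbrain IP (log2 fold change 2.24, SE 0.49, adjusted p = 0.0258).

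Oprm1, the mu receptor, was nearly level. It averaged 34.1 ± 9.19 CPM in hypothalamus IP and 33.4 ± 8.64 CPM in hypothalamus input, and 34.5 ± 4.42 CPM in midbrain IP and 28.1 ± 4.14 CPM in midbrain input (SD, n = 3 each). Its SE was among the smallest of the list, 0.23 in both regions, with log2 fold changes of 0.03 (adjusted p = 0.935) and 0.30 (adjusted p = 0.363). Of its exons 96 bp, or 1.19%, overlap Ipcef1 on the opposite strand. Oprk1, the kappa receptor for dynorphins, averaged 11.6 ± 6.96 CPM in hypothalamus IP and 17.3 ± 12.1 CPM in hypothalamus input, and 7.86 ± 2.93 CPM in midbrain IP and 9.95 ± 3.08 CPM in midbrain input. Its midbrain IP was below the input of its lane in all 3 numbers (0.680 to 0.842), without a call (adjusted p = 0.662).

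Among the neuropeptide Y receptors, Npy1r rose in midbrain IP. This Y1 receptor lies on chromosome 8 (66697192 to 66706792), next to Npy5r on the opposite strand (66679965 to 66688128). Npy1r had 24.4, 19.4 and 23.7 CPM in midbrain IP, against 16.0, 7.30 and 10.5 CPM in midbrain input. No IP library fell to the level of an input library, and the log2 fold change was 1.00 (SE 0.36, adjusted p = 0.0469). The adjusted p was just under the threshold and lay between 0.0247 and 0.159 when a single library was left out. The call was lost for 5 of the 6 midbrain libraries. It was also lost without hypothalamus IP 2, IP 3 or input 3 (adjusted p = 0.0534, 0.0521 and 0.0536). A filter of 1 CPM in 3 libraries lost it as well (adjusted p = 0.0530). The adjusted p was 0.00652 without the 4 libraries numbered 1 (log2 fold change 1.28). In the hypothalamus Npy1r had 18.05, 11.6 and 11.7 CPM in IP, against 21.3, 8.55 and 11.7 CPM in input, with interleaved libraries and a log2 difference of -0.01 (SE 0.35, adjusted p = 0.987). The 2 effects were not shown to differ (difference -1.01, SE 0.50, adjusted p = 0.797). All hypothalamus IP libraries lay below all midbrain IP libraries (log2 fold change -0.71, SE 0.35, adjusted p = 0.318), and with the replicate block Npy1r fell by 0.75 (adjusted p = 0.0351).

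Npy2r, the Y2 receptor that also acts as an autoreceptor of NPY neurons, had 27.6, 6.96 and 8.07 CPM in hypothalamus input, against 3.5, 0.539 and 4.71 CPM in midbrain input. The groups did not overlap, but the ratio within a number spread from 1.72 to 12.9. The log2 fold change of hypothalamus over midbrain input was 2.29 (SE 0.78, adjusted p = 0.236), and 2.26 with the replicate block (SE 0.50, adjusted p = 0.0176). Npy2r had 20.3, 5.93 and 5.51 CPM in hypothalamus IP and 5.33, 2.40 and 4.19 CPM in midbrain IP, and neither region called it against input (adjusted p = 0.699 and 0.688). Npy5r, the Y5 receptor, averaged 3.13 ± 0.942 CPM in hypothalamus IP and 3.95 ± 1.73 CPM in hypothalamus input, and 4.75 ± 2.45 CPM in midbrain IP and 3.25 ± 1.79 CPM in midbrain input, with overlapping libraries throughout. The peptide gene Npy fell by 2.82 in midbrain IP (SE 0.48, adjusted p = 0.00098), at 0.646 ± 0.231 CPM against 4.59 ± 1.90 CPM in midbrain input, while its receptor Npy1r rose there. In hypothalamus IP the log2 fold change of Npy was 1.12, without a call (SE 0.43, adjusted p = 0.0653).

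Of the galanin receptors, Galr1 carried the result in the midbrain. It couples to Gi, and had 5.12, 3.03 and 6.26 CPM in midbrain IP, against 1.77, 1.80 and 1.21 CPM in midbrain input. Every IP library lay above every input library, and Galr1 rose by a log2 change of 1.59 (SE 0.48, adjusted p = 0.0233), 3.01-fold higher. The call was lost when any of 5 of the 6 midbrain libraries was left out (adjusted p = 0.0504 to 0.0832), and without the 4 libraries numbered 1 the log2 fold change was 1.63 (adjusted p = 0.0705). In the hypothalamus it had 8.68, 2.79 and 7.12 CPM in IP, against 8.61, 3.33 and 6.62 CPM in input. There the fractions matched library by library, with ratios of 1.01, 0.839 and 1.07 and a log2 difference of 0.00 (SE 0.47, adjusted p = 0.997). The difference of the regional effects was -1.59 (SE 0.67, adjusted p = 0.683). Hypothalamus input lay above midbrain input in every library, without a call (log2 fold change 1.95, SE 0.49, adjusted p = 0.0755). With the replicate block Galr1 was called higher in hypothalamus input (1.79, SE 0.40, adjusted p = 0.0166). Its ligand gene Gal had 2.89, 1.84 and 4.87 CPM in midbrain IP, against 0.461, 0.394 and 0.828 CPM in midbrain input, and rose by 2.51 (SE 0.48, adjusted p = 0.00194). In the hypothalamus every IP library of Gal lay below every input library, without a call (log2 fold change -1.18, SE 0.44, adjusted p = 0.0549).

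Somatostatin receptors also couple to Gi, and 4 of the 5 passed 1 CPM. Sstr3 had 29.4, 18.1 and 9.85 CPM in hypothalamus IP, against 13.0, 8.43 and 9.36 CPM in hypothalamus input. It had 18.8, 19.1 and 21.6 CPM in midbrain IP, against 10.8, 9.49 and 12.5 CPM in midbrain input. The midbrain groups did not overlap, and each IP of both regions was above its lane's input. The log2 ratio of IP to input was 0.90 in the hypothalamus (SE 0.33, adjusted p = 0.0511) and 0.86 in the midbrain (SE 0.33, adjusted p = 0.0588), just short of the threshold. Sstr3 rose in both with the lane block, by 0.79 in the hypothalamus (SE 0.24, adjusted p = 0.0199) and by 0.87 in the midbrain (SE 0.23, adjusted p = 0.0117). Sstr2 had 10.3, 5.34 and 3.94 CPM in midbrain IP, against 4.53, 1.85 and 1.68 CPM in midbrain input, a ratio of 2.27 to 2.89 within the lane (log2 fold change 1.28, SE 0.63, adjusted p = 0.142), and rose there with the lane block by 1.31 (SE 0.34, adjusted p = 0.00882). In the hypothalamus Sstr2 averaged 5.16 ± 3.21 CPM in IP and 3.59 ± 2.50 CPM in input (adjusted p = 0.560). Sstr1 averaged 12.7 ± 6.87 CPM in hypothalamus IP and 12.5 ± 8.25 CPM in hypothalamus input, and 17.8 ± 10.2 CPM in midbrain IP and 11.3 ± 5.48 CPM in midbrain input. Sstr4 ranged from 0.412 to 8.28 CPM among the hypothalamus IPs, against 1.17 to 2.38 CPM in hypothalamus input, so that 1 group held both extremes. In the midbrain Sstr4 averaged 2.57 ± 0.727 CPM in IP and 1.41 ± 0.505 CPM in input, with no overlap and no call (adjusted p = 0.419). The peptide gene Sst fell by 1.25 in hypothalamus IP (SE 0.41, adjusted p = 0.032) and rose by 1.67 in midbrain IP (SE 0.41, adjusted p = 0.00848).

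Tacr1, the substance P receptor, had 57.1, 37.8 and 13.3 CPM in midbrain IP, against 21.4, 17.1 and 9.69 CPM in midbrain input. Both groups spread widely in the same order, and the ratio within the lane was 2.66, 2.21 and 1.37. The log2 fold change was 1.17 (SE 0.55, adjusted p = 0.121), and with the lane block Tacr1 rose by 1.01 (SE 0.21, adjusted p = 0.00286). In the hypothalamus it had 26.1, 10.9 and 9.38 CPM in IP, against 24.2, 9.75 and 11.7 CPM in input, a log2 difference of 0.02 (SE 0.54, adjusted p = 0.981). Hypothalamus IP was below midbrain IP in all 3 numbers, at 0.457, 0.288 and 0.705 of it (log2 fold change -1.22, SE 0.55, adjusted p = 0.261), and with the replicate block Tacr1 fell by 1.18 (SE 0.27, adjusted p = 0.0133). Tac1, which encodes substance P, rose in midbrain IP by a log2 change of 2.31 (SE 0.72, adjusted p = 0.0265).

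Calcrl forms the receptors for CGRP and adrenomedullin with the RAMP proteins and is abundant in vessel walls. On chromosome 2 (84330626 to 84425411), it had 1.19, 1.13 and 1.5 CPM in midbrain IP, against 5.72, 5.56 and 5.34 CPM in midbrain input. The libraries of each group were close together and the groups far apart, and Calcrl fell by 2.12 (SE 0.60, adjusted p = 0.0166), 4.34-fold lower. The adjusted p was 0.0517 without midbrain IP 1, 0.0542 without midbrain IP 2 and 0.0602 without the 4 libraries numbered 1. In the hypothalamus it had 4.35, 3.16 and 0.543 CPM in IP, against 8.99, 6.35 and 3.42 CPM in input, each IP below its lane's input and the groups overlapping (log2 fold change -1.22, SE 0.58, adjusted p = 0.126). There Calcrl fell by 1.52 with the lane block (SE 0.42, adjusted p = 0.0134). Of the endothelial and mural markers 6 of 8 fell in midbrain IP, where their sum was 3.79 to 7.72 CPM against 30.5 to 39.6 CPM in midbrain input and none was at 0; their part in the Calcrl result was not tested. Ramp1, the partner that gives CGRP binding, fell in the IP by 1.31 (adjusted p = 0.03) in the hypothalamus and by 2.07 (adjusted p = 0.00329) in the midbrain. Ramp3, a partner for adrenomedullin binding, rose in midbrain IP by 1.86 (SE 0.58, adjusted p = 0.0265), at 78.9, 29.0 and 102 CPM against 19.2, 8.75 and 29.8 CPM in midbrain input.

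Of the bombesin family receptors, neither was called in the fit without a block. Grpr, the receptor for gastrin-releasing peptide, had 1.51, 1.98 and 3.62 CPM in hypothalamus IP, against 0.956, 0.192 and 0.169 CPM in midbrain IP. The groups did not overlap, with a log2 difference of 2.43 (SE 0.77, adjusted p = 0.105). It was called higher with the replicate block (2.85, SE 0.76, adjusted p = 0.029) and without the 4 libraries numbered 1 (3.93, SE 0.87, adjusted p = 0.0333). Grpr had 5.68, 2.84 and 2.72 CPM in hypothalamus input and 1.59, 1.72 and 0.402 CPM in midbrain input, and was not called against input in the fit of all libraries (adjusted p = 0.516 and 0.147); without the libraries numbered 1 it fell by 2.54 in midbrain IP (adjusted p = 0.0446). Nmbr, the neuromedin B receptor, had 3.91, 2.53 and 10.7 CPM in midbrain IP, against 1.84, 1.29 and 2.34 CPM in midbrain input. No libraries overlapped, with a log2 difference of 1.65 (SE 0.64, adjusted p = 0.0638), and with the lane block Nmbr rose by 1.42 (SE 0.48, adjusted p = 0.0318). In the hypothalamus it averaged 3.29 ± 2.12 CPM in IP and 2.17 ± 1.08 CPM in input. Its exons overlap the antisense gene B230364G03Rik over 504 bp, 15.6% of their length, and without a known strand setting the reads of the pair cannot be told apart. The peptide gene Grp rose in midbrain IP by 2.28 (SE 0.41, adjusted p = 0.0013), where Grpr was at its lowest.

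Nmur2, the neuromedin U and S receptor of the brain, lies on chromosome 11 (56024987 to 56041010) and was the receptor called higher between the IPs. It had 2.68, 0.698 and 0.637 CPM in hypothalamus IP, against 0.0213, 0.0192 and 0.212 CPM in midbrain IP, where the counts behind these values were 1, 1 and 10. The lowest hypothalamus library was 3 times the highest of the midbrain, but 2 of the 3 midbrain libraries were under the floor of 3 counts. The log2 fold change was 3.96 (SE 1.02, adjusted p = 0.0486). The call was lost in 10 of the 12 leave-outs of a single library (adjusted p up to 0.135), and without the 4 libraries numbered 1 the log2 fold change was 2.52 (adjusted p = 0.27). Nmur2 had 4.12, 1.00 and 1.37 CPM in hypothalamus input and 0.499, 0.415 and 0.449 CPM in midbrain input, also without overlap (log2 fold change 2.24, SE 0.91, adjusted p = 0.344). In both regions each IP was below its lane's input, at 0.465 to 0.696 of it in the hypothalamus and 0.0425 to 0.471 in the midbrain (adjusted p = 0.575 and 0.0769). Nmur2 fell by 2.94 in midbrain IP with the lane block (SE 0.95, adjusted p = 0.027), where 2 of the 3 IP libraries were under the floor.

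Npffr2, a receptor for neuropeptide FF, lies on chromosome 5 (89527429 to 89583740) and pointed in opposite directions in the regions. It had 0.121, 0.0367 and 0.375 CPM in hypothalamus IP, against 1.28, 1.29 and 0.644 CPM in hypothalamus input. In the midbrain it had 1.27, 0.633 and 0.677 CPM in IP, against 0.557, 0.166 and 0.426 CPM in input. The groups of neither region overlapped, in opposite order. Npffr2 fell by 2.58 in hypothalamus IP (SE 0.86, adjusted p = 0.0361), and its midbrain log2 fold change was 1.16 (SE 0.82, adjusted p = 0.303). The hypothalamus call was lost without the 4 libraries numbered 1 (log2 fold change -2.22, adjusted p = 0.21), and when any of 4 of the 6 hypothalamus libraries was left out. It was also lost with the lane block (log2 fold change -2.97, adjusted p = 0.0535) and with the 2 hypothalamus groups fitted alone (-2.56, adjusted p = 0.0753), and kept with the replicate block (-2.84, adjusted p = 0.0298). The difference of the 2 effects, -3.74, was not called by edgeR (SE 1.19, adjusted p = 0.44) and was called by DESeq2 (-3.73, adjusted p = 0.0455).

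Among the corticotropin-releasing hormone receptors, Crhr1 had 2.70, 2.09 and 1.52 CPM in hypothalamus IP, against 7.33, 5.01 and 3.75 CPM in midbrain IP. All hypothalamus libraries lay below all midbrain libraries, and the ratio within a number was 0.368, 0.418 and 0.405. The log2 fold change was -1.35 (SE 0.39, adjusted p = 0.0762), and with the replicate block Crhr1 fell by 1.33 (SE 0.34, adjusted p = 0.0216). It averaged 3.16 ± 1.01 CPM in hypothalamus input and 4.90 ± 1.12 CPM in midbrain input, and was not called against input in either region (adjusted p = 0.266 and 0.824). Crhr2, which prefers urocortins, had 1.93, 1.85 and 0.0749 CPM in hypothalamus IP, where library 3 stood far from the others, against 1.47, 1.56 and 1.51 CPM in hypothalamus input. In the midbrain it averaged 0.448 ± 0.105 CPM in IP and 0.313 ± 0.180 CPM in input. The peptide gene Crh rose in midbrain IP, at 4.63, 2.78 and 3.98 CPM against 0.634, 0.477 and 0.236 CPM in midbrain input (log2 fold change 3.07, SE 0.70, adjusted p = 0.00557).

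Oxtr, the oxytocin receptor, had 20.3, 5.91 and 21.0 CPM in hypothalamus IP, against 14.3, 8.78 and 9.80 CPM in hypothalamus input, with 1 IP library below all inputs. It had 8.03, 5.01 and 16.7 CPM in midbrain IP, against 4.86, 4.50 and 7.26 CPM in midbrain input, each IP above its lane's input. Neither difference was called (log2 fold change 0.52, adjusted p = 0.45 and 0.84, adjusted p = 0.216). Avpr1a, the V1a vasopressin receptor, had 0.806, 1.38 and 0.993 CPM in hypothalamus IP, against 4.67, 1.48 and 2.60 CPM in hypothalamus input. Its groups did not overlap, by a narrow margin, and the log2 fold change was -1.46 (SE 0.56, adjusted p = 0.0606). DESeq2 called Avpr1a lower there (-1.49, adjusted p = 0.0143). So did edgeR with library size alone (adjusted p = 0.0438) and without hypothalamus input 2 (adjusted p = 0.0421). With the lane block it was not called (-1.34, adjusted p = 0.113). In the midbrain Avpr1a averaged 1.72 ± 0.716 CPM in IP and 1.22 ± 0.494 CPM in input (log2 fold change 0.49, adjusted p = 0.533). The peptide genes Oxt and Avp fell in hypothalamus IP, by 3.86 (SE 0.67, adjusted p = 0.0011) and 4.24 (SE 0.96, adjusted p = 0.00713).

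The remaining receptors were not called in the fit without a block. Mchr1, for melanin-concentrating hormone, had 24.6, 4.54 and 7.34 CPM in hypothalamus IP, against 11.2, 2.27 and 6.32 CPM in hypothalamus input, and averaged 11.97 ± 6.53 CPM in midbrain IP and 7.12 ± 1.70 CPM in midbrain input. Its IP was above the input of the lane in all 6 pairs, by 1.16 to 2.38 times, with log2 fold changes of 0.88 (adjusted p = 0.33) and 0.75 (adjusted p = 0.413). Mchr1 rose in hypothalamus IP by 0.78 with the lane block (SE 0.28, adjusted p = 0.0438), and in midbrain IP its value was 0.63 (adjusted p = 0.0908). The orexin receptors were low: Hcrtr1 averaged 1.98 ± 0.316 CPM in hypothalamus IP and 1.52 ± 0.517 CPM in hypothalamus input, and 3.28 ± 2.22 CPM in midbrain IP and 2.37 ± 1.32 CPM in midbrain input. Hcrtr2 averaged 4.47 ± 1.82 CPM in hypothalamus IP and 7.52 ± 4.79 CPM in hypothalamus input, and 6.66 ± 2.65 CPM in midbrain IP and 6.04 ± 3.0 CPM in midbrain input. Trhr, for thyrotropin-releasing hormone, averaged 8.59 ± 1.29 CPM in hypothalamus IP and 9.64 ± 6.0 CPM in hypothalamus input, and 5.68 ± 1.80 CPM in midbrain IP and 4.97 ± 1.14 CPM in midbrain input. Both pairs of groups overlap for these receptors. Cckbr, the brain receptor for cholecystokinin, averaged 12.8 ± 9.64 CPM in hypothalamus IP and 8.53 ± 3.88 CPM in hypothalamus input, and 16.4 ± 9.87 CPM in midbrain IP and 11.5 ± 5.15 CPM in midbrain input (adjusted p = 0.476 and 0.535). Its ligand gene Cck rose in the IP of both regions, by log2 fold changes of 2.48 (SE 0.39, adjusted p = 0.000557) and 1.83 (SE 0.38, adjusted p = 0.00323).

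The 6 receptors below 1 CPM in all groups were Vipr1, described above, and Sstr5, Galr2, Galr3, Prlhr and Npffr1. They passed the filter and were tested with the rest, and of them Vipr1 alone was called by edgeR. Galr3 shares 363 bp, 29.2% of its exons, with Gcat on the same strand, so its counts are uncertain. By highest group mean, Npffr2 was just inside the limit of 1 CPM, at 1.07 CPM, and Npffr1 just outside it, at 0.934 CPM.

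The regional comparisons put the receptors side by side within a fraction. Between the IPs 1 receptor (2.70%) was called higher in the hypothalamus, Nmur2, where 2.05% of all genes were, and 1 (2.70%) lower, Vipr1, where 2.21% of all genes were, 4.26% of all genes in either direction. Libraries did not overlap for 4 receptors (10.8%) in each direction, where this held for 10.0% of all genes in the higher and 8.52% in the lower direction. With the replicate number as a block, 3 receptors (8.11%) were called higher (Nmur2, Ntsr1 and Grpr), where 4.41% of all genes were, and 5 (13.5%) lower (Npy1r, Crhr1, Tacr1, Vipr2 and Vipr1), where 6.75% of all genes were. The pairing behind that block was chosen from these same counts, so its calls are no independent support for a regional difference. The median log2 fold change of hypothalamus over midbrain IP was -0.31, beside 0.01 over all genes.

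Between the inputs no receptor was called in either direction, where 1.00% of all genes were called higher in the hypothalamus and 0.601% lower, 1.61% in all. There were 7 receptors at an unadjusted p under 0.05, and the share of all genes at that p was not computed. Npy2r and Galr1 (5.41% of the receptors) were called higher by DESeq2, where 2.59% of all genes were, and with the replicate block, where 2.87% of all genes were. With that block no receptor was called lower, where 3.18% of all genes were. Libraries did not overlap for 10 receptors (27.0%) in the higher direction, where 11.9% of all genes did so, and for 2 (5.41%) in the lower direction, Crhr1 and Vipr2, where 10.2% of all genes did so. Fold changes were above 1 for 28 of 37, with a median log2 value of 0.42 beside 0.01 over all genes. Within a number, hypothalamus input exceeded midbrain input in all 3 pairs for 14 of the 31 receptors, where 24.0% of all genes did, and fell short in all 3 for 3, where 23.6% of all genes did. Between the IPs these counts were 6 above, where 22.0% of all genes were, and 12 below, where 20.7% of all genes were. The regions of a number ran on different lanes, so region and lane cannot be told apart within a number.

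**Figure D5:**
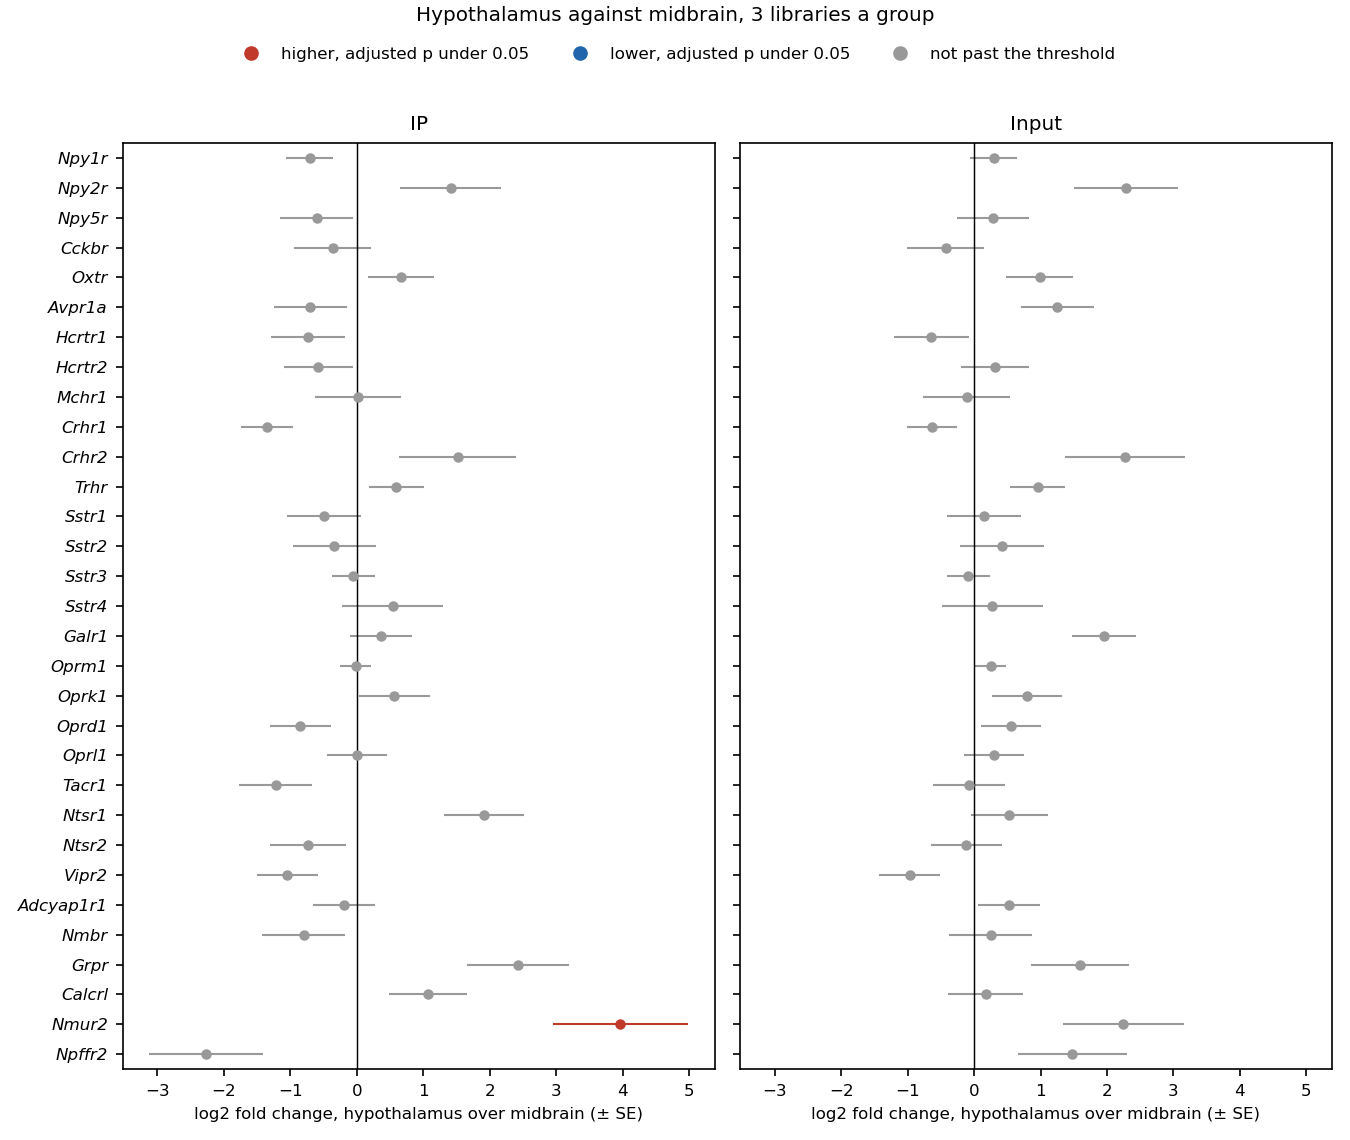
Log2 fold change of hypothalamus over midbrain for the 31 receptors, with its standard error, in the IP (left) and the input (right). Nmur2 in the IP, at 3.96, is the red point past the threshold; Grpr, Ntsr1, Npy2r and Galr1 lie above 0 in both panels, and Npffr2 changes side, at -2.26 in the IP and 1.48 in the input.

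The regional difference in enrichment, the test of whether IP over input differed between hypothalamus and midbrain, called no receptor in either direction with edgeR, where 0.0607% of all genes were called higher and 0.0165% lower, 0.0772% in all. At an unadjusted p under 0.05 there were 5 receptors, and the share of all genes at that p was not computed. DESeq2 called Vipr1 and Npffr2 lower, 5.41% of the receptors, where 0.545% of all genes were. The difference was below 0 for 28 of 37, with a median of -0.72 beside -0.01 over all genes. A receptor called in 1 region and not in the other is therefore not shown to differ between them.

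The ligand and partner genes set beside a receptor above, and Vip, Mc3r and Ramp3, were chosen after their values were seen. Of 35 peptide ligand genes listed, 29 were tested. In the hypothalamus 2 were called higher in IP (6.90% of the 29, where 14.2% of all genes were), Cck and Adcyap1, and 6 lower (20.7%, where 19.6% of all genes were). Those lower there were Oxt, Avp, Ucn3, Sst, Pomc and Vip. Vip had 0.0403, 0.0551 and 0.0187 CPM in hypothalamus IP, against 3.37, 1.66 and 0.503 CPM in hypothalamus input. In the midbrain 9 ligands were called higher in IP (31.0%, where 14.0% of all genes were) and 2 lower (6.90%, where 19.9% were). Calca, the CGRP gene, rose there by 3.20 (SE 0.78, adjusted p = 0.00797), at 33.9, 18.7 and 28.1 CPM in midbrain IP against 5.86, 0.954 and 1.94 CPM in midbrain input, where its receptor gene Calcrl and Ramp1 fell. Between the IPs, 9 ligands were called higher in the hypothalamus (31.0%, where 2.05% of all genes were) and 4 lower (13.8%, where 2.21% were). Between the inputs 8 were called higher (27.6%, where 1.00% of all genes were) and 1 lower (3.45%, where 0.601% were). Hcrt, which encodes the orexins, had 106, 57.7 and 42.9 CPM in hypothalamus IP, against 0.0638, 0.0384 and 0.106 CPM in midbrain IP, and Hcrtr1 and Hcrtr2 had log2 fold changes of -0.73 (SE 0.56) and -0.58 (SE 0.52) between the IPs, neither called.

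Of 35 other peptide receptors, 27 were tested. In the hypothalamus 1 was called higher, Prokr2, a prokineticin receptor, which rose by 1.77 (SE 0.48, adjusted p = 0.0135), and 3 lower, which is 3.70% and 11.1% of the 27 beside 14.2% and 19.6% of all genes. Among these Ednrb, an endothelin receptor known from astrocytes, fell by 4.46 (SE 0.72, adjusted p = 0.000687), close in size to Ntsr2, and it fell by 4.31 in midbrain IP (SE 0.72, adjusted p = 0.000851). In the midbrain the melanocortin receptor Mc3r was the receptor called higher, by 1.85 (SE 0.47, adjusted p = 0.00951). That is 3.70% of the 27, where 14.0% of all genes were, and 1 was lower (3.70%, where 19.9% were). Between the IPs 2 were called higher in the hypothalamus (7.41%, where 2.05% of all genes were) and 1 lower (3.70%, where 2.21% were). Between the inputs 4 were called higher (14.8%, where 1.00% of all genes were) and 0 lower (where 0.601% were). Cckar, the other cholecystokinin receptor, had 7.53, 6.28 and 8.86 CPM in hypothalamus IP, against 1.34, 0.653 and 1.78 CPM in midbrain IP, and rose by 2.59 (SE 0.38, adjusted p = 0.00278). Cckbr, beside it, had a log2 difference of -0.36 (SE 0.58, adjusted p = 0.812) between the IPs. Of 23 genes for receptor coupling, trafficking and peptide breakdown, all tested, 3 were called higher in hypothalamus IP (13.0%, where 14.2% of all genes were) and 2 lower (8.70%, where 19.6% were). In midbrain IP 4 were higher (17.4%, where 14.0% of all genes were) and 1 lower (4.35%, where 19.9% were). The receptor kinase genes Grk2 (listed in the files as Adrbk1) and Grk6 rose in both regions, Grk2 by 1.16 in each (SE 0.19, adjusted p = 0.000798 and 0.0008) and Grk6 by 1.12 (SE 0.21, adjusted p = 0.00177) in the hypothalamus and 1.30 (SE 0.21, adjusted p = 0.000737) in the midbrain. No gene of that list was called between regions in either fraction.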

How the data were processed

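RNA was measured in 12 libraries, 3 in each of 4 groups (IP and input of hypothalamus and midbrain). The deposited values are raw counts per gene; per the submitters' processing notes the tools were STAR 2.0.0e and HTSeq and the build mm10. The annotation, strand setting and counting mode are not given in the sources used here. The HTSeq summary rows were left out: of all rows, alignments that were not unique made up 23.7% to 48.6% and reads on no feature 7.59% to 17.4%, and the row named unknown held 0 to 7 counts. Ambiguous reads numbered 1737853 to 1986434 in the IPs. They numbered 16126812 in hypothalamus input 1, 16516586 in midbrain input 1 and 3985265 to 9205718 in the other inputs. The part of the ambiguous reads in the results was not tested.

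From the counts, 18128 of 32531 genes passed filterByExpr and were tested in R 4.3.3 with edgeR 4.0.16: TMM scaling, 1 fit of the 4 group means over all 12 libraries, the robust quasi-likelihood F test and Benjamini-Hochberg adjustment over all genes tested, with calls at an adjusted p under 0.05. The standard error is the log2 fold change over the square root of F. Every adjusted p without another tool's name is from edgeR. Alternatives were DESeq2 1.42.0, limma-voom (limma 3.58.1), other scaling, filters and samples, a replicate block, and each library left out; leaving out the 4 libraries numbered 1 together was chosen after seeing the data. The code was tested on simulated data. Exon lengths and overlaps are from merged GENCODE M21 exons.

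IP and input of a region and number share a lane label, and these pairs were taken as paired by it. The regions of a number share no lane and were taken as paired because every same-numbered pair deviated together, with a correlation of deviations from group means over genes of 0.113 to 0.301 for the IPs and 0.141 to 0.379 for the inputs. Between the fractions it was 0.155 to 0.324 in the hypothalamus and 0.0754 to 0.189 in the midbrain.

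The receptors, gene lists and tests were chosen with earlier results of these data known. Receptors of at least 1 CPM in a group are described, and up to 4 list genes in each direction of at least 5 CPM with groups that do not overlap; other named genes are stated as such. The labels do not say whether replicates are separate animals, so p-values measure only the spread between these samples. Counting intervals and floors of 3 counts cover counting error only.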

Additional observations from a re-analysis of the deposited data

How the results depend on the processing

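For the 31 receptors in 5 comparisons, 3317 alternative values were computed. Of these 3204 kept their side of the threshold, 42 lost a call, 71 gained one and 0 reversed a called direction. Among the 3204, 181 changed sign without a call in either fit. Counts of receptors called moved as follows; the cause was not tested. In hypothalamus IP, 0 were higher: 0 to 2 with 1 library left out, 1 by DESeq2, 1 without a filter on low counts, 2 with the replicate block and 4 with the block within region; the 4 lower became 2 to 5 with 1 library left out. In midbrain IP, 2 were higher: 0 to 3 with 1 library left out, 4 by DESeq2, 1 by limma-voom, 1 with at least 1 CPM in 3 libraries, 4 with the groups of the comparison alone, and 8 with either replicate block; the 2 lower became 1 to 3, and 3 with the block or 4 with the block within region. The block within region is the lane block. For the difference in enrichment, DESeq2 called 2 lower. Between the IPs, 1 was higher: 0 to 1 with 1 library left out, 3 by DESeq2, 0 by limma-voom, 0 with the comparison's groups alone and 3 with the replicate block. There 1 was lower: 0 to 1, 3 by DESeq2, 0 with 1 CPM in 3 libraries, 0 with the comparison's groups alone, 5 with the replicate block and 0 without the 4 libraries numbered 1. Between the inputs, 0 were higher: 0 to 1 with 1 library left out, 1 by library size alone, 2 by DESeq2 and 2 with the replicate block. Scaling by library size alone put the all-gene median (log2) at -0.25 in place of -0.08 in hypothalamus IP and at 0.13 in place of 0.01 between the inputs. Among the 31 receptors, DESeq2 also called some that edgeR without a block did not. Against input these were Sstr3 (higher) and Avpr1a (lower) in the hypothalamus, and Sstr3 and Nmbr (higher) and Nmur2 (lower) in the midbrain. Between the IPs they were Ntsr1 and Grpr (higher) and Crhr1 and Npffr2 (lower). Depth limits Vipr1, Nmur2 and Npffr2, which rest on few counts in 1 group.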
